A study of Mus musculus with 12 samples.

Results

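The effect of tumor growth in bone on osteoblasts was set against its effect on endothelial cells from long bones, gene by gene. Each effect is the mean log2 value of arrays from tumor-bearing mice minus that of arrays from tumor-free mice. The quantity of interest is the osteoblast effect minus the endothelial effect, called the difference of effects below. A positive difference means that a gene stood higher in osteoblasts of tumor-bearing mice by more than it did in endothelial cells, and a negative difference means the reverse. All 12 arrays of the series entered, in 4 groups of 3. Of 19937 genes with a probe set annotated to exactly 1 symbol, 14217 passed a filter on dim probe sets and were tested.

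The mice were female C57BL/6 and the cells came from their long bones. The tumor-bearing mice had received 500000 EO771 cells, a mouse mammary cancer line, by injection into the heart, and tumor growth in bone was followed by bioluminescence for about 2 weeks. The tumor-free mice served as controls, and no treatment of theirs is named. Osteoblasts were sorted as CD51-positive cells negative for GFP, TR119, CD45, SCA1 and CD31. Endothelial cells were sorted as cells positive for SCA1 and CD31 and negative for GFP, TR119 and CD45. Each array held amplified RNA of 5000 sorted cells. The labels call the 3 arrays of a group biological replicates, but do not say whether mice were pooled or whether the 2 cell types came from the same mice.

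Osteoblasts lay down bone matrix, and they share the marrow space with perivascular stromal cells that feed blood stem cells through factors such as CXCL12 and stem cell factor. Endothelial cells line the marrow sinusoids and arterioles, and the stromal cells sit on their outer surface. Metastatic breast cancer cells lodge beside these vessels and bone surfaces. A sorted fraction is a mixture set by its gate, so the array reads the RNA of every cell that passed it.

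The arrays were of even brightness, with medians over all probe sets between 5.95 and 6.04 on the log2 scale. Replicates correlated at 0.892 to 0.949 in the osteoblast groups and at 0.940 to 0.963 in the endothelial groups. The identity genes read here followed the gates, which does not make the fractions pure. The endothelial junction gene Cdh5 lay between 11.39 and 11.91 in the 6 endothelial arrays and between 5.54 and 6.23 in the osteoblast arrays, and Pecam1, which encodes CD31, between 10.68 and 10.99 against 5.70 to 6.90. The osteoblast transcription factor gene Sp7 lay between 7.73 and 8.75 in osteoblast arrays and between 5.51 and 6.18 in endothelial arrays. Some genes of other cell types were bright too. The adipokine gene Adipoq had 8.74, 7.89 and 9.03 in tumor-free endothelial arrays. Chondrocyte markers had array medians of 8.40, 10.17 and 8.48 in tumor-free osteoblasts. Both osteoblast replicates numbered 3 held more signal of blood cells. Their median over pan-haematopoietic markers was 7.22 with tumor and 7.26 without, and it lay between 5.81 and 6.31 in each of the other 10 arrays. The tumor-free one also had a neutrophil marker median of 8.75, which was at most 6.78 in any other array. Markers of mammary epithelium and of the tumor line had array medians of 5.90 to 6.27 in all 4 groups. Some values that rest on the 2 osteoblast replicates numbered 3 are also given without 1 or both of them.

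The estimated tumor effects of the 2 cell types were nearly uncorrelated across genes. Over the 14217 genes, Pearson's r between them was 0.0332 and Spearman's rho 0.0373, a description across genes that are not independent. The effects had the same sign in 7336 genes, 51.6% of those tested. The median absolute effect was 0.156 in osteoblasts and 0.114 in endothelial cells. The median standard error was 0.181 for an osteoblast effect and 0.256 for a difference of effects. Errors of that size lower a correlation, so the low r does not show that the true effects are unrelated. The median difference of effects was -0.02, and 47.0% of genes were positive.

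**Figure D1:**
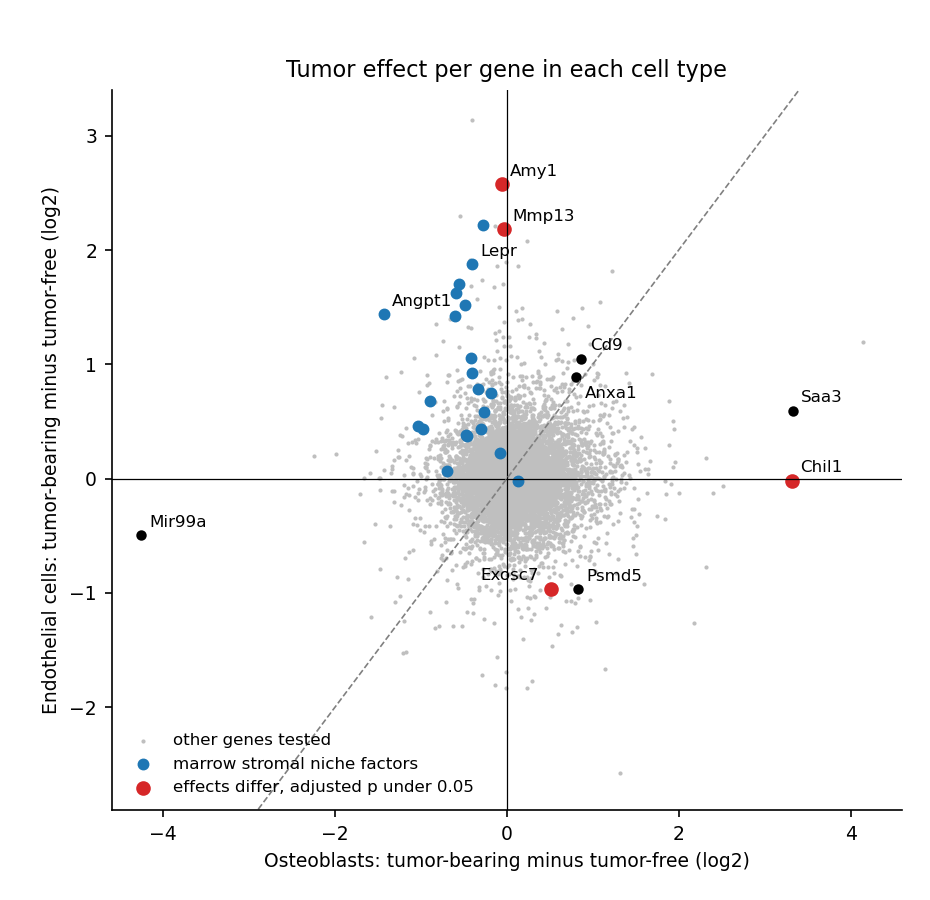
Each point is 1 of the 14217 genes tested, with its tumor effect in osteoblasts on the horizontal axis and in endothelial cells on the vertical axis, both in log2 units (mean of 3 tumor-bearing arrays minus mean of 3 tumor-free arrays). Points on the dashed line have equal effects. The 4 genes in red had a limma adjusted p under 0.05 for the difference, and 20 of the 21 blue niche factors lie above and left of the origin.

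The difference of effects passed the limma test (adjusted p under 0.05) in 4 genes, 2 positive and 2 negative, 0.0141% of genes in each direction. Without adjustment (p under 0.05) there were 501 positive genes, 3.52% of those tested, and 419 negative genes, 2.95%. The osteoblast effect itself passed in 8 genes, 0.0563%, and the endothelial effect in 2, 0.0141%. No gene was among both. At an unadjusted p under 0.05 the osteoblast effect was positive in 5.8% and negative in 3.97% of genes, and the endothelial effect positive in 2.62% and negative in 1.97%. About 711 genes would be under that limma threshold by chance, against 1390 for the osteoblast effect, 653 for the endothelial effect and 920 for the difference. The 4 genes were Chil1, which rose in osteoblasts, Mmp13 and Amy1, which rose in endothelial cells, and Exosc7, whose 2 effects had opposite signs. Of the 8 osteoblast and 2 endothelial genes, 1 and 2 also passed the test of the difference.

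Chil1 encodes a chitinase-like secreted glycoprotein made in inflamed tissue. Its log2 values were 9.83, 10.11 and 9.13 in osteoblasts with tumor and 6.19, 6.08 and 6.84 without. In endothelial cells they were 6.15, 6.23 and 6.39 with tumor and 6.15, 6.33 and 6.35 without. The 3 osteoblast arrays of tumor-bearing mice thus stood apart from the other 9 arrays, which lay between 6.08 and 6.84. The effect was 3.32 in osteoblasts (limma adjusted p = 0.00123) and -0.02 in endothelial cells, a difference of 3.34 with a 95% interval of 2.55 to 4.13 (adjusted p = 0.0179). In tumor-free mice the 2 cell types differed in Chil1 by 0.09, and in tumor-bearing mice by 3.43. The difference missed the threshold without osteoblast tumor-free replicate 1, endothelial tumor-free replicates 2 or 3, or any 1 of the endothelial tumor-bearing arrays (3.25 to 3.41, adjusted p 0.0631 to 0.0925).

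Mmp13 encodes the collagenase that cleaves fibrillar collagen in bone and hypertrophic cartilage. Its log2 values were 7.53, 6.96 and 7.40 in endothelial cells with tumor and 5.40, 4.93 and 5.00 without. In osteoblasts they were 12.19, 12.17 and 12.02 with tumor and 12.31, 12.07 and 12.11 without. Mmp13 was thus at its osteoblast level in both osteoblast groups, and the endothelial groups did not overlap. The effect was 2.18 in endothelial cells (limma adjusted p = 0.00124) and -0.04 in osteoblasts, a difference of -2.22 with a 95% interval of -2.75 to -1.69 (adjusted p = 0.0179). The gap between osteoblasts and endothelial cells was 7.05 in tumor-free and 4.83 in tumor-bearing mice. The difference missed the threshold without osteoblast tumor-bearing replicates 2 or 3, osteoblast tumor-free replicates 1 or 3, endothelial tumor-bearing replicates 1 or 3, or endothelial tumor-free replicates 2 or 3 (-2.25 to -2.10, adjusted p 0.0503 to 0.0925), and without replicate 3 of both osteoblast groups (-2.19, adjusted p = 0.0577).

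Amy1 encodes an amylase, a starch-digesting enzyme. Its log2 values were 8.03, 8.10 and 8.0 in endothelial cells with tumor and 5.04, 5.53 and 5.85 without. In osteoblasts they were 9.20, 8.76 and 8.81 with tumor and 9.24, 9.01 and 8.70 without. Only the endothelial groups were apart, and all 6 osteoblast arrays lay above all 6 endothelial arrays. The effect was 2.57 in endothelial cells (limma adjusted p = 0.00124) and -0.06 in osteoblasts, a difference of -2.64 with a 95% interval of -3.30 to -1.97 (adjusted p = 0.0179). The amylase genes are near-identical copies, so signal of another copy in this probe set cannot be told apart. The difference missed the threshold without osteoblast tumor-bearing replicates 2 or 3, osteoblast tumor-free replicate 1, any 1 of the endothelial tumor-bearing arrays, or endothelial tumor-free replicate 2 (-2.67 to -2.51, adjusted p 0.0527 to 0.0953).

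Exosc7 encodes a subunit of the RNA exosome, which trims and degrades RNA. Its log2 values were 7.46, 7.06 and 7.07 in osteoblasts with tumor and 6.50, 6.86 and 6.66 without. In endothelial cells they were 6.95, 6.91 and 6.84 with tumor and 7.75, 7.91 and 7.93 without. The groups did not overlap in either cell type, higher with tumor in osteoblasts and lower with tumor in endothelial cells. Neither effect passed on its own (0.52, limma adjusted p = 0.267, and -0.96, adjusted p = 0.122), while their difference of 1.48, with a 95% interval of 1.06 to 1.91, passed narrowly (adjusted p = 0.0472). The call held in fewer of the 23 alternative settings tried than did the calls of the other 3 genes. The difference passed without osteoblast tumor-bearing replicate 1 or tumor-free replicate 2 and missed the threshold without any other single array (1.39 to 1.55, adjusted p 0.0645 to 0.222). With quantile normalization its adjusted p was 0.0705.

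**Figure D2:**
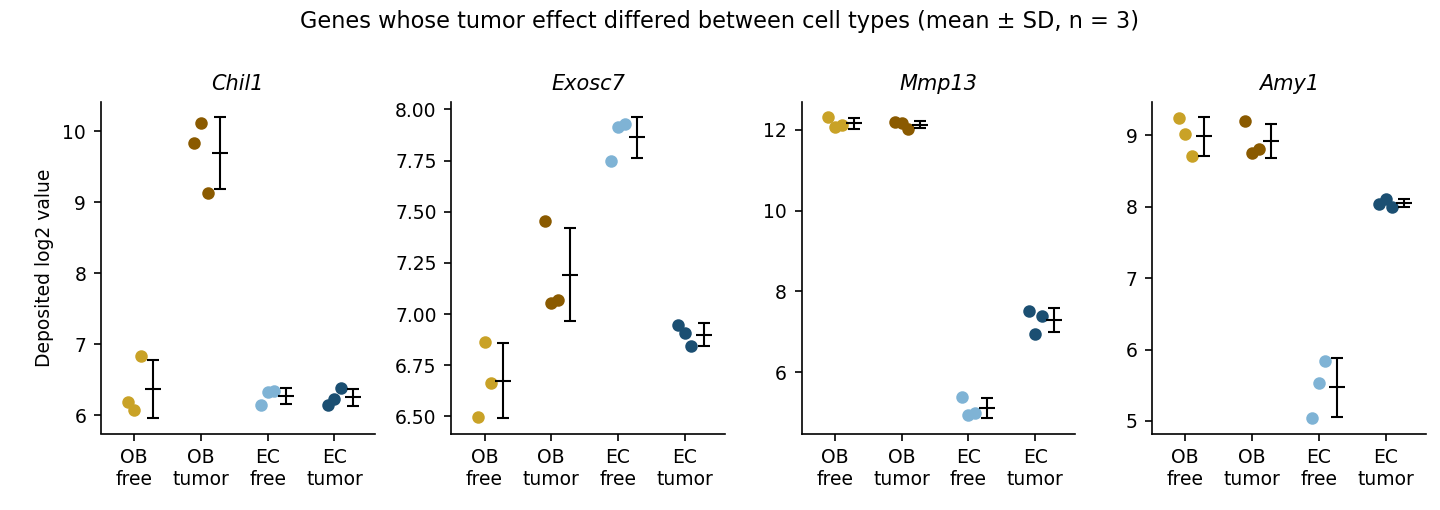
Deposited log2 values of Chil1, Exosc7, Mmp13 and Amy1 in the 12 arrays, by cell type (OB, osteoblasts; EC, endothelial cells) and tumor status; points are arrays, bars are the mean ± SD of 3 arrays, and each panel has its own scale. Chil1 is high in the 3 osteoblast arrays with tumor alone, Mmp13 and Amy1 are higher with tumor in endothelial cells alone, and Exosc7 runs in opposite directions.

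The promoters of Mmp13, Exosc7 and Chil1 are printed because the tumor effects of these genes differed between cell types. The 2 windows of Amy1 are given by position only. The windows are the 250 bases before the RefSeq start of each gene (GRCm38.p6), 5′ to 3′ on the gene's strand. Capitals mark matches on either strand to 3 short motifs. These were the AP-1 site TGANTCA, bound by Fos and Jun proteins, the Runx site TGTGGT, bound by the bone factor RUNX2, and the core CCCNNGGG that EBF factors bind.
Mmp13, chr9:7272264-7272513, plus strand: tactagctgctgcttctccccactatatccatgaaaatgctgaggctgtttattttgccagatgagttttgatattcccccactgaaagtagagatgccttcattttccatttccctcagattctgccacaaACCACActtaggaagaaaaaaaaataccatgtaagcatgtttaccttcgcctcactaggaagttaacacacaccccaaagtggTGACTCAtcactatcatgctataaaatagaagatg
Exosc7, chr9:123112981-123113230, plus strand: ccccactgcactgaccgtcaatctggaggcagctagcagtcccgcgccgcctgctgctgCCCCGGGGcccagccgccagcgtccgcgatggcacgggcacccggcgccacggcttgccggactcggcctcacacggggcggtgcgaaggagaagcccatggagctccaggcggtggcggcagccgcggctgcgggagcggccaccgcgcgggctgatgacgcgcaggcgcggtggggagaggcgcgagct
Chil1, chr1:134181906-134182155, plus strand: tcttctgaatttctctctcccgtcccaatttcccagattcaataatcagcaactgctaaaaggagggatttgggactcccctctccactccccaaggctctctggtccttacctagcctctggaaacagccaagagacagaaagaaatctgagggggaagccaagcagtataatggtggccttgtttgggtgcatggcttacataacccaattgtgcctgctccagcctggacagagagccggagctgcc
The Mmp13 window held 1 AP-1 match, 35 bases before the start, and 1 Runx match on the opposite strand, 118 bases before it. The Exosc7 window held 1 EBF core match, 191 bases before the start. The Chil1 window and the 2 windows of Amy1 (chr3:113577751-113578000 and chr3:113574763-113575012, minus strand) held none of the 3. Over the 32851 windows of the table, 6.75% held an AP-1 match, 14% a Runx match and 11.8% an EBF core match, and over the 14107 windows of genes tested 4.83%, 10.8% and 15.8%. The 3 motifs do not overlap each other in these windows, and a match describes letters only.

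The other 7 genes that passed in osteoblasts had differences of effects whose 95% intervals lay on one side of 0, but none passed over all genes. The transcription factor gene Myc rose by 1.43 in osteoblasts and had an effect of 0.33 in endothelial cells. The calcium-binding protein gene S100a10 had 10.96, 11.04 and 11.20 in osteoblasts with tumor and 10.18, 10.00 and 10.18 without, and 9.41 to 9.76 in all 6 endothelial arrays. Its difference of 0.96 had an interval of 0.59 to 1.33 (limma adjusted p = 0.222). Eif3m, a translation initiation factor subunit, had effects of 0.99 and -0.24 and a difference of 1.24 (0.83 to 1.65, adjusted p = 0.126). It passed without osteoblast tumor-bearing replicate 1 (1.35, adjusted p = 0.0485), and a further probe set of Eif3m gave 0.72. The RNA methyltransferase gene Ftsj1 differed by 1.29 (0.62 to 1.96) and Myc by 1.10 (0.52 to 1.69), with adjusted p of 0.371 and 0.380.

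On the negative side the sodium channel gene Scn7a fell in osteoblasts by 1.99, with 4.41, 4.86 and 3.75 with tumor against 6.56, 6.47 and 5.95 without. All 6 endothelial arrays were dim in it, between 3.71 and 4.33, and the groups overlapped. Its difference was -2.20 (-3.05 to -1.35, limma adjusted p = 0.222). The transcriptional adaptor gene Tada2b differed by -1.14 (-1.64 to -0.63, adjusted p = 0.298).

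The probe set of the microRNA gene Mir99a had log2 values of 4.18, 4.06 and 3.84 in osteoblasts with tumor and 8.85, 8.44 and 7.55 without. In endothelial cells it had 3.95, 4.08 and 4.0 with tumor and 5.86, 3.57 and 4.09 without. Tumor-free osteoblasts alone were bright, and 1 tumor-free endothelial array stood above the rest of its cell type. The difference was -3.76 (-5.34 to -2.18, limma adjusted p = 0.254), and without endothelial tumor-free replicate 1 it was -4.43 and passed (adjusted p = 0.0170). Mir423, another microRNA gene, was lower with tumor in both cell types. It had 6.17, 6.14 and 6.22 against 6.43, 6.71 and 6.74 in osteoblasts and 6.32, 6.09 and 6.32 against 6.70, 6.58 and 6.54 in endothelial cells. The mature products of these 2 genes, from RefSeq (GRCm38.p6), are shown because one ran apart and the other alike in the 2 cell types; capitals mark the seed, bases 2 to 8, with which a microRNA pairs to its targets.
mmu-miR-99a-5p, chr16:77598940-77598961, plus strand: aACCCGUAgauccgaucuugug
mmu-miR-423-5p, chr11:77078122-77078144, minus strand: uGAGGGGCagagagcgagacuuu
The seeds differ, and the sources do not say whether the probe sets read the mature RNA or its precursor.

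Genes moving in opposite directions were sought in 2 ways. At an unadjusted p under 0.05 in both cell types, 39 genes had effects of opposite sign, 0.274% of those tested, against 62 of the same sign, 0.436%. Of the 39, 17 were higher in osteoblasts and lower in endothelial cells with tumor, and 22 the reverse. Adjusted over all genes, 0 genes passed with limma in both cell types, by the larger of the 2 p-values. By the other rule, groups of arrays that did not overlap in either cell type, 34 genes (0.239%) were higher in osteoblasts and lower in endothelial cells and 51 (0.359%) the reverse. The groups did not overlap in 14.5% of genes in osteoblasts alone and in 10.5% in endothelial cells alone. With tumor, 879 genes were higher and 1188 lower in osteoblasts by this rule, and 801 higher and 693 lower in endothelial cells. The counts of 34 and 51 are no higher than these would give in unlinked cell types. Except where stated, the genes named next were taken from the sets that did not overlap, so their directions describe the choice.

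The first examples were higher in osteoblasts and lower in endothelial cells. Psmd5, an assembly chaperone of the proteasome, had log2 values of 6.33, 5.88 and 6.21 in osteoblasts with tumor and 5.06, 5.56 and 5.32 without. In endothelial cells it had 5.92, 5.70 and 5.25 with tumor and 6.64, 6.82 and 6.32 without. Its effects of 0.83 and -0.97 differed by 1.80 (1.14 to 2.45, limma adjusted p = 0.222). The deubiquitinase gene Atxn3 had effects of 0.85 and -0.59 and a difference of 1.44 (0.87 to 2.01, adjusted p = 0.222). It passed only without replicate 3 of both osteoblast groups (1.77, adjusted p = 0.0284). The chromatin gene Jmjd1c (0.52 and -0.28), the lipid transfer gene Vps13c (0.45 and -0.47), the nucleolar gene Ccdc86 (0.68 and -0.64), the mitochondrial ribosome factor gene Malsu1 (0.45 and -0.52) and the adhesion gene Flrt3 (0.57 and -0.43) had the same pattern with smaller values. The sugar nucleotide enzyme gene Uap1, named for its place in the difference and in neither set because its endothelial arrays overlapped, had 1.17 and -0.48, a difference of 1.64 (0.93 to 2.36, adjusted p = 0.276). Uap1 passed without osteoblast tumor-free replicate 2 (1.94, adjusted p = 0.0424). Flrt3 passed without osteoblast tumor-free replicate 2 (a difference of 1.20, adjusted p = 0.0458).

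The next examples were lower in osteoblasts and higher in endothelial cells. Rab23, a small GTPase of membrane traffic and hedgehog signalling, had log2 values of 7.37, 6.88 and 7.83 in osteoblasts with tumor and 8.52, 8.32 and 7.97 without. In endothelial cells it had 7.29, 7.36 and 7.71 with tumor and 6.34, 7.03 and 6.49 without. Its effects of -0.91 and 0.84 differed by -1.74 (-2.56 to -0.93, limma adjusted p = 0.359). Lpl, the lipoprotein lipase that frees fatty acids for uptake, had 8.45, 8.45 and 8.08 against 9.11, 8.93 and 8.77 in osteoblasts. In endothelial cells Lpl had 9.0, 8.39 and 8.96 against 8.34, 7.88 and 7.95. Lpl was thus brighter in osteoblasts than in endothelial cells without tumor, and this order was gone with tumor. Its difference was -1.34 (-1.95 to -0.72, adjusted p = 0.335). The collagen gene Col8a1 (-0.58 and 0.64), the membrane glycoprotein gene Gpm6b (-0.98 and 0.44) and the interferon-inducible gene Ifi208 (-0.73 and 0.68) followed. Ifi208 was dim in osteoblasts, at 3.54 to 4.46.

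**Figure D3:**
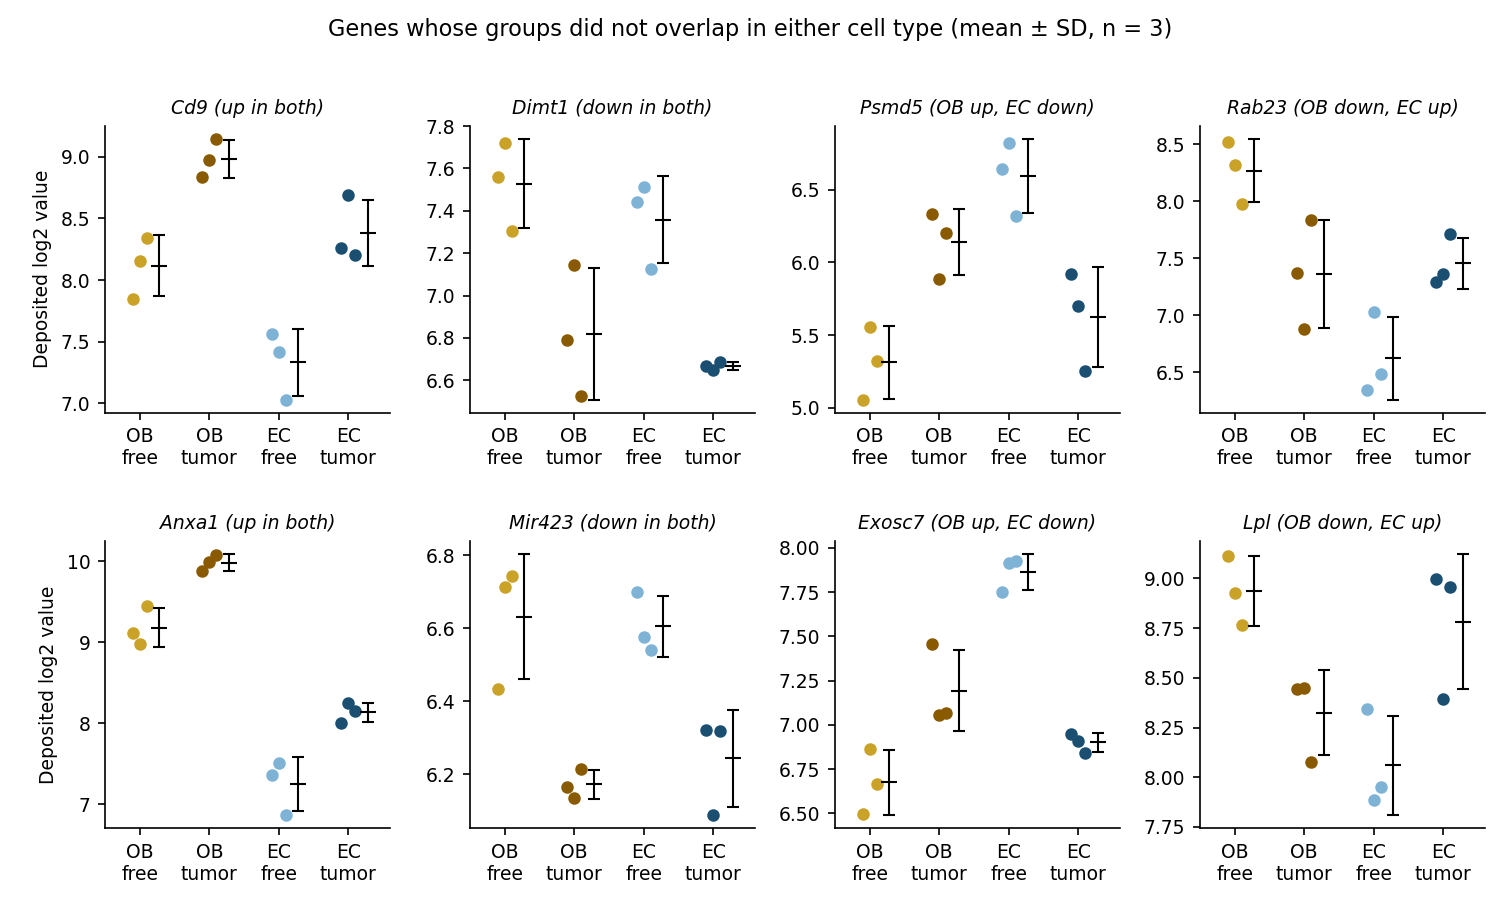
Deposited log2 values of 8 genes chosen because their groups of arrays did not overlap in either cell type, 2 for each sign pattern (columns), by cell type (OB, osteoblasts; EC, endothelial cells) and tumor status; points are arrays, bars are the mean ± SD of 3 arrays, and each panel has its own scale. Cd9 and Anxa1 are higher with tumor in both cell types, Dimt1 and Mir423 lower in both, and Psmd5, Exosc7, Rab23 and Lpl change sides.

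Of the 35 gene lists, the one with the most negative median difference was the marrow stromal niche factors, genes that perivascular stromal cells use to hold and feed blood stem cells. Of 21 tested members, 20 had a negative difference of effects, each with a negative effect in osteoblasts and a positive effect in endothelial cells. The exception was the macrophage growth factor gene Csf1 (0.12 and -0.02), named after its values were seen. The median difference was -1.41, against -0.02 over all genes tested, with medians of -0.47 in osteoblasts and 0.75 in endothelial cells. At an unadjusted p under 0.05, 14 of the 21 had a negative difference, where 2.95% of all genes did, and 0 passed with limma over all genes. In endothelial cells alone 14 members were higher at an unadjusted p under 0.05, where 2.62% of genes were, and in osteoblasts alone 5 were lower, where 3.97% were. In 8 members the groups of arrays did not overlap in either cell type, lower in osteoblasts and higher in endothelial cells, a pattern that 0.359% of all genes had. The list and several of its members were chosen with earlier results of these arrays known, so these counts are no independent evidence of the direction.

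Among secreted niche factors, Cxcl12, the chemokine that retains blood stem cells, had log2 values of 10.60, 10.49 and 10.15 in osteoblasts with tumor and 10.98, 10.73 and 10.76 without. In endothelial cells it had 10.46, 9.84 and 9.56 with tumor and 9.49, 8.10 and 9.11 without. The groups did not overlap in either cell type, and the difference of effects was -1.47 (-2.50 to -0.43, limma adjusted p = 0.624). Kitl, which encodes stem cell factor, had 8.40, 7.92 and 7.47 against 8.77, 8.12 and 7.91 in osteoblasts, which overlapped. In endothelial cells Kitl had 8.33, 8.21 and 7.86 against 7.35, 7.36 and 7.33, and its difference was -1.12 (-1.94 to -0.31, adjusted p = 0.655). Angpt1, the vessel-stabilizing ligand of the receptor TIE2, had 7.58, 6.80 and 6.44 against 8.57, 8.55 and 8.01 in osteoblasts. In endothelial cells Angpt1 had 6.91, 4.82 and 6.16 with tumor and 4.92, 3.95 and 4.71 without, so 1 array with tumor lay among those without. Its effects of -1.43 and 1.44 were of similar size, and their difference was -2.87 (-4.41 to -1.33, adjusted p = 0.380).

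The growth factor gene Fgf7 had log2 values of 7.53, 6.95 and 7.40 in endothelial cells with tumor and 4.80, 4.73 and 5.71 without, and 9.04 to 10.22 in the 6 osteoblast arrays. Its difference was -2.50 (-3.51 to -1.48, limma adjusted p = 0.232). The adipokine gene Adipoq had 10.73, 9.58 and 10.23 in endothelial cells with tumor and 8.74, 7.89 and 9.03 without, and a difference of -2.21 (-3.27 to -1.15, adjusted p = 0.364). Both were lower in the mean in osteoblasts with tumor, by values of -0.28 and -0.59. The growth factor binding protein gene Igfbp5 (-0.60 in osteoblasts and 1.42 in endothelial cells) and the secreted proteoglycan gene Esm1 (-0.56 and 1.71) had the same signs.

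Among receptors and transcription factors, Lepr, the leptin receptor gene that marks perivascular marrow stroma, had log2 values of 10.20, 9.34 and 8.82 in endothelial cells with tumor and 8.03, 7.28 and 7.43 without. In osteoblasts Lepr had 10.20, 9.93 and 9.62 with tumor and 10.22, 10.42 and 10.35 without. The gap in Lepr between osteoblasts and endothelial cells was 2.75 in tumor-free and 0.46 in tumor-bearing mice, and the difference of effects was -2.28 (-3.28 to -1.29, limma adjusted p = 0.276). Ebf3, a transcription factor gene of the same stromal cells, had 7.77, 8.05 and 7.38 against 8.96, 8.75 and 8.57 in osteoblasts. In endothelial cells Ebf3 had 7.77, 7.72 and 7.61 against 7.03, 7.22 and 7.48, so both cell types came to similar values with tumor. Its difference was -1.49 (-2.05 to -0.92, adjusted p = 0.222), and that of its relative Ebf1 was -1.57 (-2.42 to -0.72, adjusted p = 0.383). Of the 17 niche genes with a promoter window, Bmp4, Csf1, Ebf3, Grem1 and Ptn held the EBF core CCCNNGGG in their 19 windows (26.3% of windows), where 15.8% of windows of genes tested and 11.8% of all windows did. This compares letters in short windows and draws nothing about EBF binding.

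**Figure D4:**
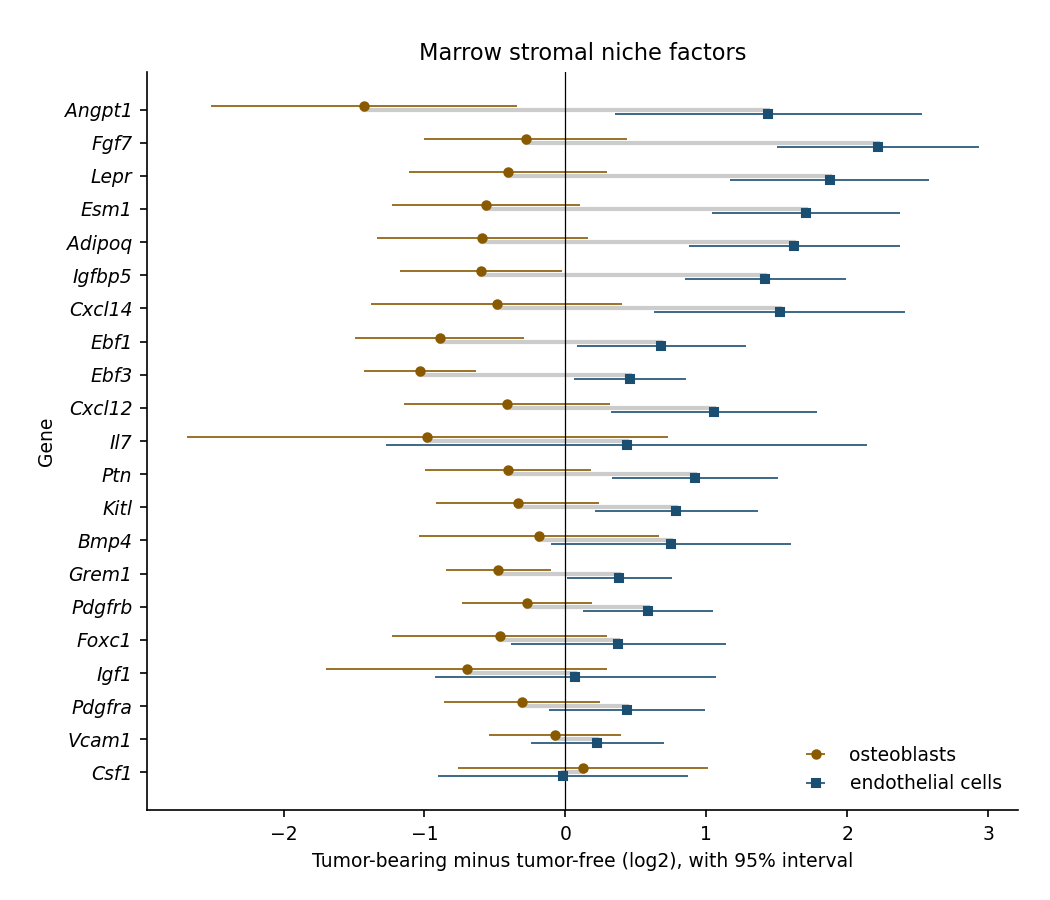
Tumor effects of the 21 tested niche factors in osteoblasts (circles) and endothelial cells (squares), in log2 units with 95% intervals from the limma fit of 12 arrays, ordered by the difference of effects; a grey bar joins the 2 effects of a gene. In 20 genes the osteoblast effect is negative and the endothelial effect positive, and Csf1 at the bottom is the exception.

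The median of the 21 niche factors per array was 9.19, 8.84 and 8.46 in osteoblasts with tumor and 9.48, 8.92 and 9.34 without, which overlapped. In endothelial cells it was 8.14, 7.72 and 7.42 with tumor and 7.35, 7.22 and 7.09 without, which did not overlap. Leaving out single arrays moved the median difference between -1.50 and -1.03, with 20 or 21 negative members each time, and without replicate 3 of both osteoblast groups it was -1.28 with 21 of 21 negative. In bulk RNA, a change in how many cells of a type passed the gate and a change in RNA per cell cannot be told apart.

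In endothelial arrays the array medians of other stromal cell markers were also higher with tumor, while the median effect per marker gene was small (0.06 for fibroblast, 0.03 for pericyte and 0.09 for adipocyte markers). Fibroblast and tendon markers had an array median of 6.34, 5.72 and 5.89 with tumor and 5.46, 5.55 and 5.58 without, and 13 of 16 members had a positive effect. The fibroblast matrix genes Aspn (effects of -0.14 in osteoblasts and 1.28 in endothelial cells) and Ogn (-0.29 and 1.73) led them. Ogn had 8.19, 5.75 and 5.96 in endothelial cells with tumor and 4.81, 4.77 and 5.11 without, so 1 array stood far above the rest. Pericyte and smooth muscle markers had 6.97, 7.01 and 7.04 against 6.27, 6.34 and 6.60, with 9 of 13 effects positive. Rgs5, a pericyte gene, had 7.72, 8.65 and 7.77 in endothelial cells with tumor and 6.92, 6.34 and 6.77 without, and a difference of -1.40 (-2.14 to -0.66, limma adjusted p = 0.380). Adipocyte markers, which share Adipoq with the niche list, had 9.0, 8.39 and 8.96 against 8.34, 7.88 and 7.95, with 6 of 9 effects positive. In all 6 endothelial arrays that median was the value of Lpl alone, a gene named above because its groups did not overlap. The part of these cell types in the niche result was not tested. In the same arrays endothelial identity genes had a median of 9.0, 9.04 and 8.97 with tumor and 9.32, 9.25 and 9.15 without, although 16 of 26 members had a positive effect and the median member effect was 0.04.

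The 17 tested osteoblast and bone matrix genes had a median effect of 0.06 in endothelial cells and -0.09 in osteoblasts, and a median difference of -0.12 with 12 negative. Sp7 had an effect of 0.02 and Alpl, the bone phosphatase gene, of 0.06 in endothelial cells. The exception was the mineral-binding protein gene Ibsp, at -0.09 in osteoblasts and 1.29 in endothelial cells (a difference of -1.38, -2.38 to -0.37, limma adjusted p = 0.661). In endothelial cells Ibsp had 10.25, 8.87 and 8.76 with tumor and 7.83, 8.26 and 7.90 without, so 1 array with tumor stood well above the rest. The osteoblast arrays lay between 12.26 and 12.46.

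Of 35 tested members of the matrix and matrix remodelling list, 23 had a negative difference of effects, with a median of -0.23. At an unadjusted p under 0.05, 7 were negative and 2 positive, where 2.95% and 3.52% of all genes were, and Mmp13 alone passed over all genes. In endothelial cells 9 members were higher at an unadjusted p under 0.05 and 0 lower, where 2.62% and 1.97% of all genes were. After Mmp13 and Col8a1 came the tenascin gene Tnc, a glycoprotein of remodelling matrix, with -0.34 in osteoblasts and 0.80 in endothelial cells. The collagen gene Col6a3 ran the other way (0.40 and -0.23, a difference of 0.63, 0.15 to 1.11, limma adjusted p = 0.675).

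Signalling genes gave single examples rather than a shared direction. In the angiogenesis list 14 of 25 differences were negative with a median of -0.06, and beside Angpt1 and Esm1 the lymphatic growth factor gene Vegfc had effects of -0.55 and 0.80. In the TGF-beta and BMP list 11 of 21 were negative with a median of -0.07. Inhba, which encodes an activin subunit, had 10.11, 9.55 and 8.18 in osteoblasts with tumor, 6.79, 7.35 and 8.0 without, and 5.72 to 6.11 in the 6 endothelial arrays. Its difference was 1.95 (0.60 to 3.31, limma adjusted p = 0.619), and it passed only without replicate 3 of both osteoblast groups (2.81, adjusted p = 0.0294). The BMP ligand gene Bmp6 (-0.56 and 0.40) and the BMP antagonist gene Grem1 (-0.48 and 0.38) had the opposite signs. Of 18 Wnt antagonists and targets, 12 were negative with a median of -0.14, among them the Wnt antagonist gene Sfrp4 (-0.04 and 1.24).

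Lists of inflammation genes had positive median differences. Of 21 tested NF-kappaB targets and cytokines, 15 had a positive difference of effects, with a median of 0.46 and with medians of 0.47 in osteoblasts and 0.08 in endothelial cells. In osteoblasts 16 had a positive effect and 5 a negative one. The positive effect of 7 had an unadjusted p under 0.05, where 5.8% of all genes had one. At an unadjusted p under 0.05, 4 had a positive difference, where 3.52% of all genes did, and Chil1 passed. Saa3, an acute-phase gene, had 8.90, 9.81 and 7.92 in osteoblasts with tumor and 5.02, 5.10 and 6.54 without. In endothelial cells Saa3 had 5.05, 6.40 and 5.36 with tumor and 4.95, 4.84 and 5.25 without. The osteoblast groups were apart and the endothelial groups overlapped, and the difference was 2.73 (1.06 to 4.41, limma adjusted p = 0.505). The apoptosis inhibitor gene Birc3 had effects of 0.70 and -0.39, and the monocyte chemokine gene Ccl2 of 1.06 and 0.08. Over all single arrays left out, the median difference of the list ran from 0.13 without osteoblast tumor-free replicate 1 to 0.57 without endothelial tumor-free replicate 2, with 15 or 16 of 21 positive.

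Type I interferon response genes had a positive difference in 19 of 22 members, with a median of 0.32. In osteoblasts 9 were higher at an unadjusted p under 0.05, where 5.8% of all genes were, and in endothelial cells 0 were. The chemokine gene Cxcl10 had 9.03, 9.16 and 9.39 in osteoblasts with tumor and 7.73, 7.38 and 7.64 without. In endothelial cells Cxcl10 had 9.69, 9.23 and 9.46 with tumor and 9.87, 8.39 and 9.86 without, and its difference was 1.52 (0.46 to 2.58, limma adjusted p = 0.619). Cxcl10 was thus already bright in tumor-free endothelial cells, and osteoblasts came near that level only with tumor. The viral RNA and DNA sensor genes Ddx58 (0.76 and -0.16) and Zbp1 (0.85 and 0.15) and the interferon-induced gene Xaf1 (0.45 and -0.28) followed. The list count rested on 1 array. Without osteoblast tumor-bearing replicate 3, 1 of the 2 arrays with high blood cell markers, 12 of 22 were positive with a median of 0.04. Without replicate 3 of both osteoblast groups 13 were, with a median of 0.09.

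Of 25 immediate early and heat shock genes, 19 had positive effects in both cell types and 19 had a positive difference, with a median of 0.22. Median effects were 0.38 in osteoblasts and 0.11 in endothelial cells. Myc had 10.34, 10.12 and 10.51 in osteoblasts with tumor and 8.97, 9.22 and 8.49 without, against 8.50, 8.88 and 8.71 and 8.39, 8.26 and 8.47 in endothelial cells. The chaperone genes Hsph1 (1.27 and 0.00) and Hspb1 (1.55 and 0.06) followed, and neither difference passed (limma adjusted p = 0.672 and 0.719). Over all single arrays left out, the median difference of the list ran from 0.09 without osteoblast tumor-free replicate 3 to 0.39 without tumor-bearing replicate 3.

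Cell division genes had a positive difference in 18 of 23 members with a median of 0.23, from medians of 0.09 in osteoblasts and -0.22 in endothelial cells, where 20 of 23 had a negative effect. Bub1, a mitotic checkpoint kinase gene, had effects of 1.03 and -0.22. Without osteoblast tumor-bearing replicate 3 the median difference was 0.05, with 13 of 23 positive. Chondrocyte markers had a positive difference in 17 of 19 members with a median of 0.64, yet 0 at an unadjusted p under 0.05. Their array medians were 10.00, 10.34 and 8.52 in osteoblasts with tumor and 8.40, 10.17 and 8.48 without, so arrays of both groups were high or low. Without osteoblast tumor-free replicate 2 the median difference was 1.24, and without tumor-free replicate 1 it was 0.09. Neutrophil markers had a negative difference in 11 of 13 members with a median of -0.49, and without osteoblast tumor-free replicate 3 this became 6 of 13 and 0.13.

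**Figure D5:**
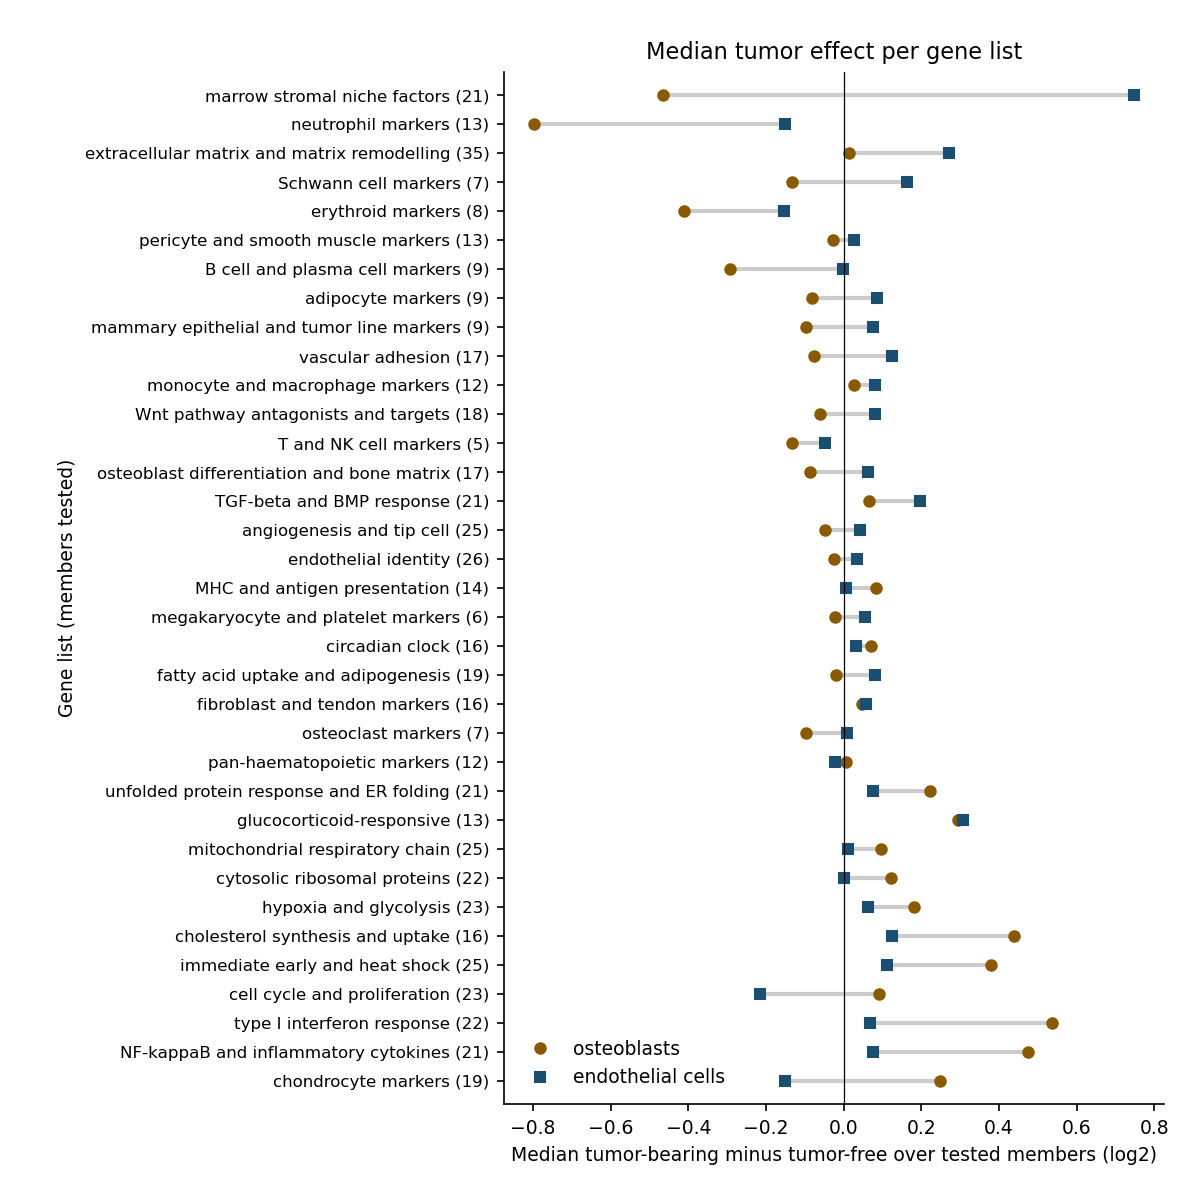
Median tumor effect over the tested members of each of 35 gene lists in osteoblasts (circles) and endothelial cells (squares), in log2 units, ordered by the median difference of effects; the number of tested members is in parentheses. Niche factors have the widest gap with opposite signs (-0.47 and 0.75), and the inflammation, interferon and heat shock lists have higher medians in osteoblasts.

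Genes moving alike were sought with the mean of the 2 effects and with the rules on both cell types. The mean effect passed with limma in 3 genes, 0.0211% of those tested, but these were Chil1, Mmp13 and Amy1, each of which passed in 1 cell type only. Of the 62 genes with both unadjusted p under 0.05 and the same sign, 41 were higher and 21 lower with tumor. By groups that did not overlap in either cell type, 70 genes (0.492%) were higher in both and 56 (0.394%) lower in both.

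Of genes whose arrays stood higher in both cell types without overlap, Cd9 had the lowest adjusted p for the mean effect, followed by Anxa1 and Myc at equal values. Myc is described above, and its endothelial effect had an unadjusted limma p of 0.111. Cd9, a tetraspanin of cell adhesion, had log2 values of 8.83, 8.97 and 9.14 in osteoblasts with tumor and 7.85, 8.16 and 8.34 without. In endothelial cells Cd9 had 8.26, 8.69 and 8.20 with tumor and 7.56, 7.41 and 7.03 without. Its effects of 0.87 and 1.05 differed by -0.18, with a 95% interval of -0.77 to 0.41, and its mean effect was 0.96 (limma adjusted p = 0.0871). Anxa1, a phospholipid-binding protein that restrains inflammation, had 9.88, 10.00 and 10.08 against 9.12, 8.98 and 9.44 in osteoblasts. In endothelial cells Anxa1 had 8.01, 8.25 and 8.15 against 7.37, 7.51 and 6.87. Its effects of 0.81 and 0.89 differed by -0.08 (-0.63 to 0.47), and its mean effect was 0.85 (adjusted p = 0.0984). The intervals leave room for differences of about the size of the effects themselves.

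Other genes higher in both cell types were the SUMO protease gene Senp5 (0.78 in osteoblasts and 0.59 in endothelial cells), the membrane contact gene Esyt2 (0.71 and 0.59), the membrane protein gene Emp3 (0.78 and 1.04) and Plat, the tissue plasminogen activator gene (0.88 and 0.60). The early response factor genes Klf6 (0.52 and 0.39) and Atf3 (0.86 and 0.82) belonged here too. Atf3 had 10.19, 10.20 and 10.19 in osteoblasts with tumor and 9.87, 9.08 and 9.04 without, against 9.20, 9.65 and 9.45 and 8.97, 8.03 and 8.85 in endothelial cells. Genes lower in both were led by Dimt1, a ribosomal RNA methyltransferase. Dimt1 had 6.79, 7.14 and 6.53 against 7.56, 7.72 and 7.30 in osteoblasts and 6.67, 6.65 and 6.69 against 7.44, 7.51 and 7.12 in endothelial cells. Its effects of -0.71 and -0.69 differed by -0.02 (-0.56 to 0.52). The nucleotide sugar transporter gene Slc35b1 (-0.40 and -0.73), the endothelial transcription factor gene Sox18 (-0.68 and -0.53) and Leng8 (-0.42 and -0.61) were also in this set.

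Of 13 glucocorticoid-responsive genes, 10 had positive effects in both, with medians of 0.29 in osteoblasts and 0.31 in endothelial cells, and 7 had a positive difference. In osteoblasts 5 were higher at an unadjusted p under 0.05, where 5.8% of all genes were, and in endothelial cells 6, where 2.62% were. The metallothionein gene Mt2, which binds zinc and copper, had 10.10, 9.69 and 9.56 in osteoblasts with tumor and 7.91, 7.88 and 7.90 without. In endothelial cells Mt2 had 6.36, 7.17 and 7.37 with tumor and 5.79, 6.18 and 6.90 without, which overlapped. Its effects of 1.89 and 0.68 differed by 1.21 (0.25 to 2.16, limma adjusted p = 0.693). Errfi1, an inhibitor of epidermal growth factor receptors, had 0.30 and 0.84.

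Metabolic lists had smaller median differences. Of 16 cholesterol synthesis and uptake genes, 12 had a positive difference with a median of 0.17, from medians of 0.44 in osteoblasts and 0.12 in endothelial cells. Msmo1, a sterol oxidase gene, had effects of 1.61 and 0.27. Of 23 hypoxia and glycolysis genes, 16 were positive with a median of 0.16, among them the oxygen-sensing hydroxylase gene Egln3 (0.56 and -0.22). Of 22 cytosolic ribosomal protein genes, 18 were positive with a median of 0.14. Of 16 circadian clock genes, 7 were positive with a median of -0.02, yet the clock repressor gene Bhlhe41 had effects of 2.40 and -0.13. Its difference of 2.53 (0.85 to 4.21, limma adjusted p = 0.612) passed only without replicate 3 of both osteoblast groups (3.67, adjusted p = 0.00407).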

How the data were processed

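Sorted osteoblasts and endothelial cells were profiled, after linear amplification of their RNA, with an Affymetrix gene array for the mouse, per the labels' protocols. The deposited values are log2 expression values that the authors made from the scans. The submitters' processing notes name the affy package, and for its version and for the summary method the sources used here give nothing. No further normalization was applied.

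Of 34760 probe sets, 21640 had 1 gene symbol in the platform annotation, 1321 several and 11799 none; only the first were named, and 21553 matched the RefSeq gene table. A gene with more than 1 was read from its brightest, by the mean over 12 arrays. A gene was kept if 3 or more arrays read it above their own 40th percentile. One limma model (limma 3.58.1, R 4.3.3) with a mean for each of the 4 groups gave both tumor effects, their difference and their mean, with Benjamini-Hochberg adjustment over all 14217 genes and a threshold of 0.05. The scripts were tested on simulated data. Figures were drawn with matplotlib 3.10.9 under Python 3.11.15.

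Genes were named by place in a contrast (10 in each direction of the difference and of the mean effect, 8 in each of the 4 sign patterns with groups that do not overlap), up to 4 per list by smallest p of the difference, all genes passing in 1 cell type, and a short list of niche and identity genes. The members, gene lists and this rule were chosen with earlier results of these data known. The number of arrays limits the precision. The alternatives tried were other normalizations, filters, probe set rules, variance priors, array weights, replicate blocks and arrays left out.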

Additional observations from a re-analysis of the deposited data

Results flagged for a closer look

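In 4 genes the tumor effect in osteoblasts differed from that in endothelial cells by the limma test of the difference itself (adjusted p under 0.05, 3 arrays per group). The difference was 3.34 for Chil1 and 1.48 for Exosc7, which stood higher on the osteoblast side. It was -2.64 for Amy1 and -2.22 for Mmp13, which stood higher on the endothelial side. The adjusted p was 0.0179 for Chil1, Amy1 and Mmp13 and 0.0472 for Exosc7. The values per array and the arrays whose omission ends each call stand with the genes above.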

How the results depend on the processing

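Under 23 alternatives, 1684 of 1766 differences of effects of the 77 named genes kept their direction and side of the threshold, 43 lost the call, 7 gained it and 32 reversed. The 4 genes passing the difference kept their sign in every alternative run. With array weights all 4 still passed, Mmp13 and Exosc7 only at the threshold. Exosc7 was lost with the 60th percentile filter (adjusted p = 0.0520) and with a trended, robust prior (0.0940). The number of genes passing the difference was 8 without replicate 3 of both osteoblast groups and 0 to 7 with 1 array left out. It was 0 without osteoblast tumor-free replicate 1, endothelial tumor-bearing replicates 1 or 3, or endothelial tumor-free replicate 2. The 8 genes passing in osteoblasts became 5 with quantile normalization, 1 with array weights or 1 weight per cell type, 0 with each cell type fitted alone, 45 without replicate 3 of both osteoblast groups and 1 to 25 with 1 array left out. The 2 passing in endothelial cells became 2 to 6 with 1 array left out. With each cell type fitted alone 2 genes passed there, 1 higher and 1 lower with tumor, and only 1 of them was among the original 2. The 3 passing in the mean became 1 with array weights, 12 without both replicates 3 and 0 to 4 with 1 array left out. The 62 genes alike became 126 by groups not overlapping and 40 to 75 with 1 array left out. The 39 opposite genes became 85 by groups not overlapping, 25 with the 60th percentile filter and 33 to 59 with 1 array left out. The correlation across genes was 0.0174 with quantile normalization and 0.0133 to 0.0540 with 1 array left out. The cause was not tested.

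The labels do not say whether replicate numbers pair the arrays, and correlations across genes cannot settle it. Both osteoblast arrays numbered 3 had high blood cell markers. Over 18 pairs of arrays sharing a number, correlations of deviations from the group means ran from -0.0797 to 0.074, and 5 of 12 arrays correlated best with their own number. With the number as a replicate block, 1 gene passed the difference, 1 the osteoblast effect and 1 the mean; the difference held for Mmp13 (adjusted p = 0.0251) and was lost for Chil1 (0.163), Amy1 (0.175) and Exosc7 (0.212). With a replicate block within cell type these were 0, 0 and 0 (adjusted p of the difference 0.262 for Chil1, 0.110 for Mmp13 and Amy1 and 0.342 for Exosc7), and 62 genes were opposite.

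Differences near 0 changed sign. Without replicate 3 of both osteoblast groups they were 0.0027 for Anxa1, -0.1016 for Atf3, -0.3655 for Csf1, 0.0171 for Dimt1, 0.1922 for Sox18 and 0.0466 for Sp7, and with array weights 0.0451 for Dimt1 and 0.0448 for Sp7. With 1 array left out they ran from -0.2126 to 0.1065 for Anxa1, -0.1302 to 0.3370 for Atf3, -0.0715 to 0.2870 for Cdh5, -0.3668 to 0.4488 for Csf1, -0.1797 to 0.1290 for Dimt1, -0.0701 to 0.2913 for Esyt2, -0.0199 to 0.3063 for Senp5, -0.3209 to 0.0285 for Sox18 and -0.2526 to 0.2645 for Sp7. Dim probe sets, such as Scn7a in endothelial cells, limit how far a lower level can be read.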
